A study of Bos taurus with 6 samples.

Results

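The fibroblast growth factor (FGF) genes examined here were the ligand genes FGF2, FGF3, FGF4, FGF8, FGF17 and FGF19 and the receptor genes FGFR1, FGFR2, FGFR3 and FGFR4. They were found by Entrez identifier among the 19163 genes of the deposited raw counts and by symbol in a second deposited table of values called TPM. Of the 10 genes, 9 were in both tables, and FGF19 was not analysed here. The cells were the F7 line of bovine embryonic stem cells (bESCs), which came from an in vitro fertilized Holstein Friesian embryo. MC-F7 cells were grown on mouse embryonic fibroblasts (MEFs) stopped by mitomycin C, and MT-F7 cells were grown on MEFs fixed with methanol, with 3 RNA-seq libraries of each after 15 passages. Both groups received recombinant human FGF protein and the Wnt inhibitor IWR1 in the medium, and both were freed of attached cells on gelatin before RNA extraction. The medium of MC-F7 was renewed every day and that of MT-F7 every other day, so the feeder and the renewal of the medium cannot be told apart. All libraries came from 1 cell line, and the sources do not say if the 3 libraries were separate cultures, so the p-values measure only the spread between these libraries, which may be technical.

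FGFs are secreted proteins that bind receptor tyrosine kinases on the cell surface together with heparan sulfate chains, and the bound receptors signal through adaptor proteins to RAS and the MAP kinases. In pluripotent cells of the primed kind this route is known to help maintain self-renewal, and in the embryo FGFs pattern the early nervous system, the limbs and other tissues. FGF2 is the form most often added to culture media. The medium supplies the cells with protein, whereas the values below measure the transcripts that were counted on the bovine genes. The authors report that a smaller share of reads aligned to the bovine genome in MC-F7 than in MT-F7. They propose that fixed feeders reduced contamination by feeder cells. The part of mouse reads in the MC-F7 counts was not tested here.

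Each library had between 21958386 and 24933430 counts on genes. A gene was taken as detected above 3 counts, which is 0.12 to 0.137 CPM (counts scaled to 1000000 per library), and this limit covers counting error only. Levels are given as CPM after TMM normalization (mean ± SD, n = 3 libraries). Groups were compared by edgeR's quasi-likelihood test with Benjamini-Hochberg adjustment over 13001 genes, and a gene was called at an adjusted p under 0.05. Fold changes are MT-F7 over MC-F7, so positive log2 values are higher in MT-F7. The pluripotency gene POU5F1 was present in both groups, with 1195 ± 329 CPM in MC-F7 and 522 ± 35.6 CPM in MT-F7. It was called lower in MT-F7 (log2 fold change -1.19, adjusted p = 0.0012). Of 10 pluripotent cell markers 7 were in the counts. By the test 6 of these, POU5F1 and NANOG among them, were lower in MT-F7, beside 11.3% of all tested genes. DPPA4 among them passed a filter on low counts through the MC-F7 libraries alone. The trophectoderm gene CDX2 and the primitive endoderm gene GATA4 had 0 counts in every library.

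Of the FGF genes, 2 ligands rose in MT-F7 (FGF3 and FGF8), and 1 ligand (FGF17) and 1 receptor (FGFR4) fell. Among all tested genes 11.9% were called higher and 11.3% lower, or 23.2% in all. The libraries of the groups did not overlap for 6 of the 8 genes, 4 of them higher in MT-F7 and 2 lower, beside 40.0% of all tested genes (19.9% higher and 20.1% lower). FGF2, FGFR1, FGFR2 and FGFR3 were not called, and FGF4 had too few counts to be tested. The 8 tested genes had passed a filter on low counts. FGFR4 passed it on the MC-F7 libraries alone, and FGF3 and FGF17 had all 3 libraries over the limit of 0.419 CPM in only the group where they were higher, so the counts of genes called are a description of these genes.

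**Figure D1:**
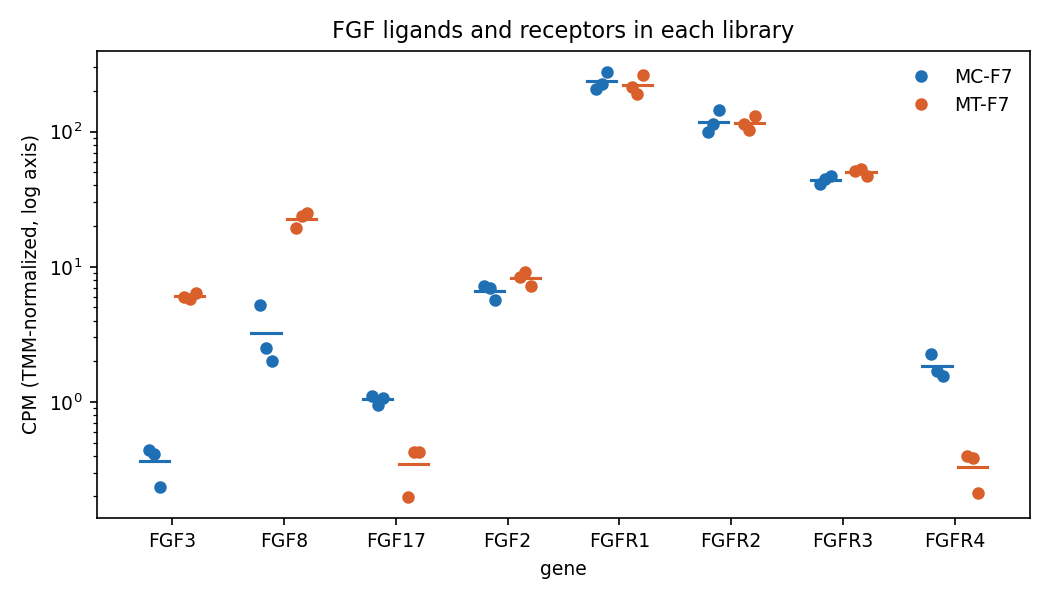
CPM of the 8 tested FGF genes (log axis), with a point for each library and a bar at the mean of the 3 libraries of MC-F7 (blue) and MT-F7 (orange). FGF3 and FGF8 sit higher in all MT-F7 libraries, FGF17 and FGFR4 sit lower, and the points of FGFR1 and FGFR2 overlap; FGF4, at 0 counts, is not drawn.

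Markers of other cell types differed between the groups as well. Of 9 neural ectoderm markers 8 were in the counts and 6 were tested, and 5 of these were higher in MT-F7, beside 11.9% of all tested genes. The summed level of the list was 425 to 488 CPM in MC-F7 and 1134 to 1276 CPM in MT-F7. No marker of this list was at 0 in every library, and EN1 and EN2 of the midbrain-hindbrain boundary had means of 0.0798 to 0.103 CPM in both groups. All 12 fibroblast markers were tested. Of these, 4 were called higher in MT-F7 (COL3A1, POSTN, PDGFRB and FBLN1), beside 11.9% of all tested genes, and 8 were not called. Among the 8, PRRX1 had a log2 fold change of -1.61 (adjusted p = 0.054), THY1 of -0.32 and COL1A2 of 0.039. Their summed level was 307 to 414 CPM in MC-F7 and 625 to 745 CPM in MT-F7, and none was at 0 in every library. The markers of pluripotent cells, mostly POU5F1 and DNMT3B, summed to 1359 to 2039.7 CPM in MC-F7 and 740.0 to 858 CPM in MT-F7. Those of trophectoderm, mostly KRT18, summed to 760 to 1116 and 186 to 210.1 CPM. Of the 3 tested, KRT7 and KRT18 were lower in MT-F7, beside 11.3% lower of all tested genes. Primitive endoderm markers summed to 5.7 to 7.67 and 1.7 to 2.42 CPM and mesendoderm markers to 8.18 to 8.58 and 6.71 to 8.08 CPM, with FOXA2 and EOMES lower in MT-F7. The part of such cells in the levels of FGF8, FGF3, FGF10 and the rest was not tested. In bulk RNA a change in the number of cells that express a gene and a change in the RNA per cell cannot be told apart.

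Among the ligands, FGF8 is a signal of the anterior neural border, the midbrain-hindbrain boundary and the gastrulating embryo. FGF8 (Entrez gene 326284) had 5.17, 2.49 and 2.01 CPM in the MC-F7 libraries and 19.5, 23.7 and 24.9 CPM in the MT-F7 libraries. The lowest MT-F7 library was above the highest MC-F7 library, although replicate 1 of MC-F7 was well above the other MC-F7 libraries. The mean rose from 3.22 ± 1.71 to 22.7 ± 2.86 CPM (log2 fold change 2.81, standard error [SE] 0.296, adjusted p = 2.8e-05), or 7.03-fold. Each fit that left out 1 library kept FGF8 as called, with log2 fold changes of 2.57 to 3.33.

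FGF3 acts in the development of the inner ear and the hindbrain and is a member of the FGF7 subfamily, whose main receptor is the IIIb splice form of FGFR2. FGF3 (618481) had 0.442, 0.414 and 0.234 CPM in MC-F7, which came from 10, 10 and 5 counts. It had 5.93, 5.75 and 6.41 CPM in MT-F7, from 149, 149 and 151 counts. The MT-F7 libraries were close to each other and all far above MC-F7, and the mean rose from 0.363 ± 0.113 to 6.03 ± 0.339 CPM. The log2 fold change (SE) was 4.02 (0.324), at an adjusted p of 3.96e-06, with a 95% interval of 3.32 to 4.73.

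FGF17 belongs to the same subfamily as FGF8 and has a role in the midbrain and cerebellum. FGF17 (100300257) had 1.11, 0.953 and 1.08 CPM in MC-F7 and 0.199, 0.425 and 0.424 CPM in MT-F7. Its counts were low, with 23 to 25 in MC-F7 and 5 to 11 in MT-F7, and the groups did not overlap. The log2 fold change (SE) was -1.57 (0.472), at an adjusted p of 0.029. The call was lost when any library other than replicate 3 of MT-F7 was left out (adjusted p = 0.057 to 0.12). FGF8 and FGF17 thus moved in opposite directions. The length-scaled level of FGF8 was 6.3, 3.51 and 2.51 times that of FGF17 in the MC-F7 libraries and 132, 75.2 and 79 times in the MT-F7 libraries.

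FGF2, which acts on many receptor forms and lacks a signal peptide, was not called. FGF2 (281161) had 7.16, 6.96 and 5.7 CPM in MC-F7 and 8.4, 9.19 and 7.22 CPM in MT-F7. The groups did not overlap, by a margin of less than the spread within either group, as was the case in the same direction for 19.9% of all tested genes. The 95% interval of the log2 fold change ran from -0.11 to 0.76, which in linear terms is a level in MT-F7 of 0.926 to 1.69 times that in MC-F7. FGF2 shares its locus with NUDT6, which overlaps it in the RefSeq annotation of ARS-UCD2.0. The sources do not state that strand was used in counting, so reads from sequence shared by the 2 genes cannot be told apart. NUDT6 had 3.72 ± 0.433 CPM in MC-F7 and 5.07 ± 1.11 CPM in MT-F7 (adjusted p = 0.21).

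FGF4, which the inner cell mass of the mouse embryo makes and which lies next to FGF3, had 0 counts in all 6 libraries. A count of 0 allows up to 3 counts in a library, so a level of up to 0.12 to 0.137 CPM was not detectable at this depth. In the order of genes of RefSeq, FGF19, FGF4 and FGF3 follow each other between CCND1 and ANO1. CCND1, a cyclin of the G1 phase, had 4.12 ± 0.496 CPM in MC-F7 and 3.42 ± 0.773 CPM in MT-F7 (adjusted p = 0.49).

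Of the 4 receptor genes 1 was called, FGFR4, beside 23.2% of all tested genes called in either direction. The levels of the others were 0.939 to 1.14 times as high in MT-F7 as in MC-F7. FGFR1 (281768), the receptor most often linked to pluripotent cells, had 206, 225 and 277 CPM in MC-F7 and 214, 189 and 261 CPM in MT-F7. The groups overlapped, and the highest library of each was replicate 3. The log2 fold change (SE) was -0.091 (0.173), at an adjusted p of 0.75, with a 95% interval from -0.46 to 0.28.

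FGFR2 (404193), whose splice forms bind different sets of ligands, had 98.8, 115 and 144 CPM in MC-F7 and 115, 103 and 131 CPM in MT-F7. These ranges overlapped as well, and counts per gene do not separate the splice forms. A long noncoding RNA gene, LOC132343968, overlaps FGFR2 in the RefSeq annotation of ARS-UCD2.0, and its part in the counts was not tested. The log2 fold change (SE) was -0.034 (0.171), at an adjusted p of 0.91, with a 95% interval from -0.40 to 0.34. The sign of the fold change of FGFR1 and FGFR2 depended on the method, while neither was called under any alternative.

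FGFR3 (281769), known above all for restraining bone growth, had 41.1, 44.7 and 46.7 CPM in MC-F7 and 51.1, 52.5 and 47.4 CPM in MT-F7. All MT-F7 libraries lay above MC-F7, but replicate 3 of the groups differed by less than the SD within either group. FGFR3 was not called (log2 fold change 0.19, SE 0.143, adjusted p = 0.38), and the 95% interval ran from -0.12 to 0.50.

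FGFR4 (317696), which in the liver is the receptor for FGF19 together with KLB, was the receptor that was called. It passed the filter on low counts on the MC-F7 libraries alone. It had 2.26, 1.7 and 1.54 CPM in MC-F7 and 0.398, 0.386 and 0.212 CPM in MT-F7. The groups were clearly apart, although the MT-F7 values rested on 10, 10 and 5 counts. The mean fell from 1.83 ± 0.374 to 0.332 ± 0.104 CPM (log2 fold change -2.44, SE 0.434, adjusted p = 0.0015). In the fits that left out 1 library the adjusted p was 0.0021 to 0.0071.

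Levels were compared between genes on a scale that takes account of gene length, for which each column of the deposited TPM values was rescaled to 1000000. On this scale FGFR1 was the highest of the 9 genes in both groups, with 83.3 ± 11.1 in MC-F7 and 82.5 ± 9.72 in MT-F7. In MC-F7 it was followed by FGFR2 (32.4 ± 5.55), FGFR3 (13.2 ± 0.891) and FGF8 (4.5 ± 2.36), whose ranges over libraries did not meet. Below them came FGF2 and FGF17, which overlapped each other, then FGFR4 and FGF3, which also overlapped.

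In MT-F7 the order was different. FGF8, with 33.5 ± 3.93, stood at the level of FGFR2 (33.4 ± 2.57), and their ranges overlapped. The ratio of FGF8 to FGFR2 was 0.268, 0.111 and 0.0717 in the MC-F7 libraries and 0.872, 1.18 and 0.972 in the MT-F7 libraries. FGF3 moved from the lowest detected gene, at 0.67 ± 0.222, to just below FGFR3 (16 ± 1.57), at 11.7 ± 0.111. FGF2 (1.74 ± 0.285), FGF17 (0.383 ± 0.142) and FGFR4 (0.134 ± 0.0464) followed without overlap.

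**Figure D2:**
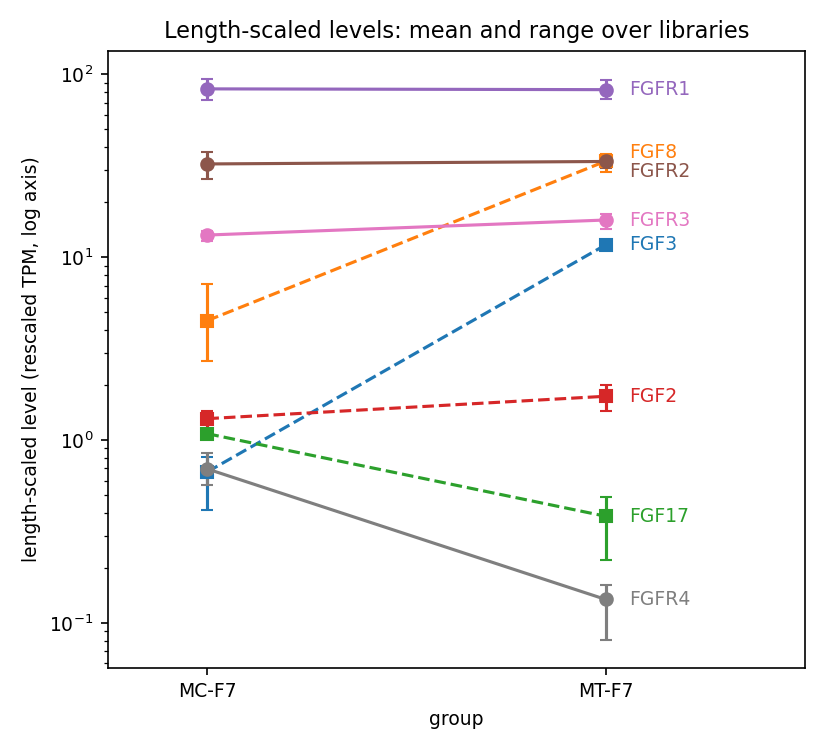
Length-scaled level (TPM rescaled to the same total in each library, log axis) of 8 FGF genes in MC-F7 and MT-F7; points are means of 3 libraries, bars run from the lowest to the highest library, circles and full lines are receptors, squares and dashed lines are ligands. The line of FGF8 climbs to that of FGFR2 and the line of FGF3 climbs to just below FGFR3, whereas FGFR1, FGFR2 and FGFR3 stay nearly level.

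The make-up of each family was then read as the share of each gene in the summed length-scaled level of the 5 chosen ligands, or of the 4 receptors, in a library. The summed level of the 5 ligands was 7.56 ± 2.68 in MC-F7 and 47.3 ± 4.12 in MT-F7, and that of the 4 receptors was 129.6 ± 17.1 and 132 ± 10.7. The ligand sums did not overlap (exact permutation test, two-sided, p = 0.1, the smallest that 3 against 3 libraries can give) and the receptor sums did (exact permutation p = 0.9).

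On this scale FGF8 was the largest share of the 5 ligands in every library, with 68.2%, 52.6% and 51.2% in the MC-F7 libraries and 68.1%, 72.2% and 71.9% in the MT-F7 libraries, and the groups overlapped through replicate 1 of MC-F7. FGF3 was 7.65%, 11.5% and 7.82% of the ligand sum in the MC-F7 libraries and 27.2%, 22.9% and 24.3% in the MT-F7 libraries. FGF2 made up 18.3% ± 4.25 in MC-F7 and 3.68% ± 0.648 in MT-F7, where the sum was larger. FGF17 made up 15.4% ± 4.79 in MC-F7 and 0.796% ± 0.242 in MT-F7. These shares of FGF3, FGF2 and FGF17 did not overlap between the groups (exact permutation p = 0.1 each, 0.13 after Benjamini-Hochberg adjustment over the ligands with counts). A 3 against 3 design cannot reach a p under 0.05 by this test.

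These shares depended on the scale and on the ligands counted. In shares of summed CPM, which take no account of length, FGF2 was the largest in MC-F7 with 59.7% ± 7.07, against 27.5% ± 8.45 for FGF8. In MT-F7 FGF8 was the largest with 60.6% ± 3.34, and its CPM shares did not overlap between the groups (exact permutation p = 0.1). Over all 17 secreted ligands in the tables, a sum chosen after seeing the data, the length-scaled level was 13.4 ± 3.64 in MC-F7 and 57.8 ± 5.77 in MT-F7. FGF8 was then 32.3% ± 8.05 and 57.9% ± 1.48 without overlap and remained the largest share in each of the 6 libraries. By the mean, FGF9 was the next in MC-F7 with 18.4% ± 6.17, ahead of FGF21 with 11.8% ± 3.3, FGF2 with 10.1% ± 1.68 and FGF17 with 8.47% ± 2.08. In replicate 1 of MC-F7 FGF21, with 14.9%, was above FGF9, with 11.6%. The ranges of FGF21, FGF2 and FGF17 over the MC-F7 libraries overlapped as well.

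Among the receptors FGFR1 was 64.3% ± 0.466 of the sum in MC-F7 and 62.4% ± 2.28 in MT-F7. FGFR2 was 24.9% ± 1.01 and 25.3% ± 0.211, and FGFR3 was 10.3% ± 0.925 and 12.2% ± 2.13. The ranges of these 3 receptors overlapped between the groups (exact permutation p = 0.4, 0.7 and 0.3). FGFR4 was 0.552% ± 0.188 in MC-F7 and 0.104% ± 0.0414 in MT-F7 without overlap (exact permutation p = 0.1, adjusted over the 4 receptors 0.4). The called receptor was thus a small part of the family in both groups.

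**Figure D3:**
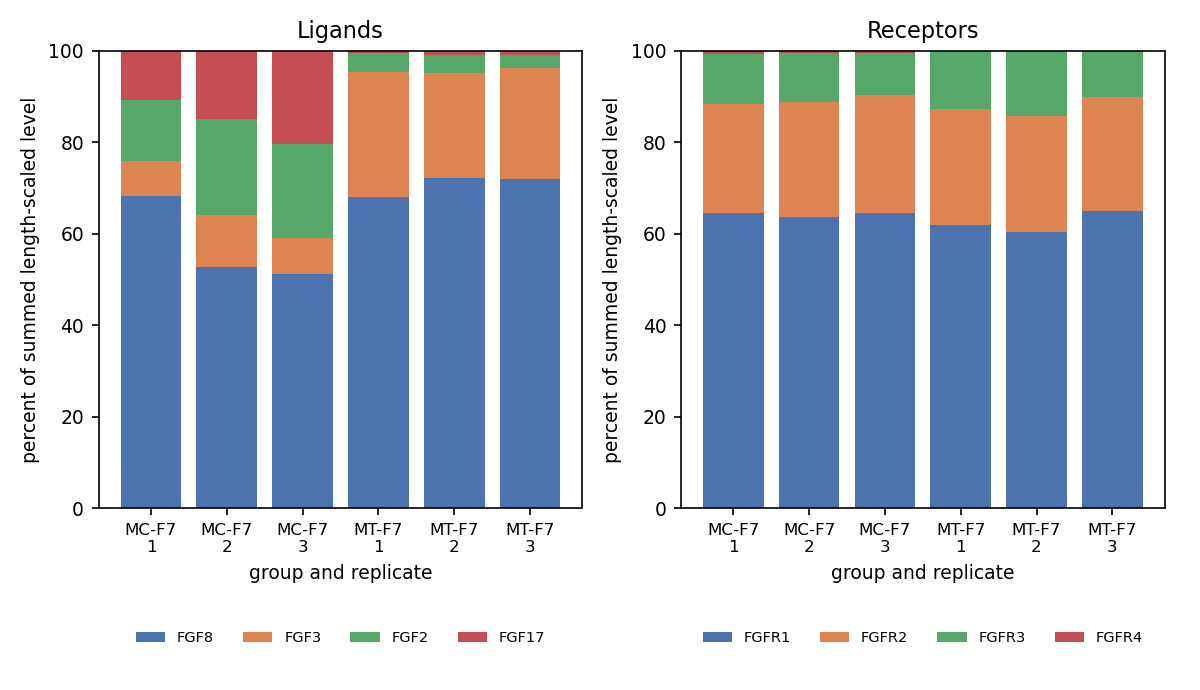
Stacked bars of the percent that each gene makes up of the summed length-scaled level, for the 5 chosen ligands (left, FGF4 at 0) and receptors (right), with 1 bar per library. FGF3 takes a wider band in MT-F7 while FGF2 and FGF17 shrink to narrow bands, and the receptor bars look alike in all 6 libraries.

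The other secreted FGF genes were read by subfamily. Of 18 secreted ligand genes 17 were in the counts and 9 could be tested, of which 4 were called higher, 2 lower and 3 neither, beside 11.9% higher and 11.3% lower of all tested genes. Of the called ligands outside the 10 genes, FGF5 passed the filter on low counts on the MT-F7 libraries alone and FGF21 on the MC-F7 libraries alone, so this count is a description. In the FGF7 subfamily, FGF10, the ligand that drives budding of the lung and limb, rose together with FGF3. FGF10 had 0.929, 0.663 and 0.748 CPM in MC-F7 and 11, 16.6 and 13.9 CPM in MT-F7 (log2 fold change 4.14, SE 0.266, adjusted p = 7.65e-07). The remaining genes of this subfamily had too few counts to be tested, with 0.569 ± 0.199 CPM in MC-F7 and 0.118 ± 0.1 CPM in MT-F7 for FGF22 and 0.0138 ± 0.0239 and 0.139 ± 0.173 CPM for FGF7.

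FGF5, which in mice marks the epiblast after implantation and limits hair growth, is a member of the FGF4 subfamily. It rose from 0.297 ± 0.0841 to 1.77 ± 0.21 CPM (log2 fold change 2.56, SE 0.432, adjusted p = 0.001), while FGF4 and FGF6 had 0 counts in every library. FGF21, an endocrine FGF of metabolism, fell from 1.15 ± 0.611 to 0.203 ± 0.076 CPM (log2 fold change -2.49, SE 0.579, adjusted p = 0.0078). It is named after its values were seen, because its mean over the 6 libraries was under 1 CPM. FGF9, with 4.96 ± 0.542 and 5.34 ± 0.945 CPM, and FGF18 of the FGF8 subfamily, with 1.23 ± 0.353 and 1.07 ± 0.34 CPM, were not called (adjusted p = 0.78 and 0.76). FGF23 had 0 counts throughout.

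**Figure D4:**
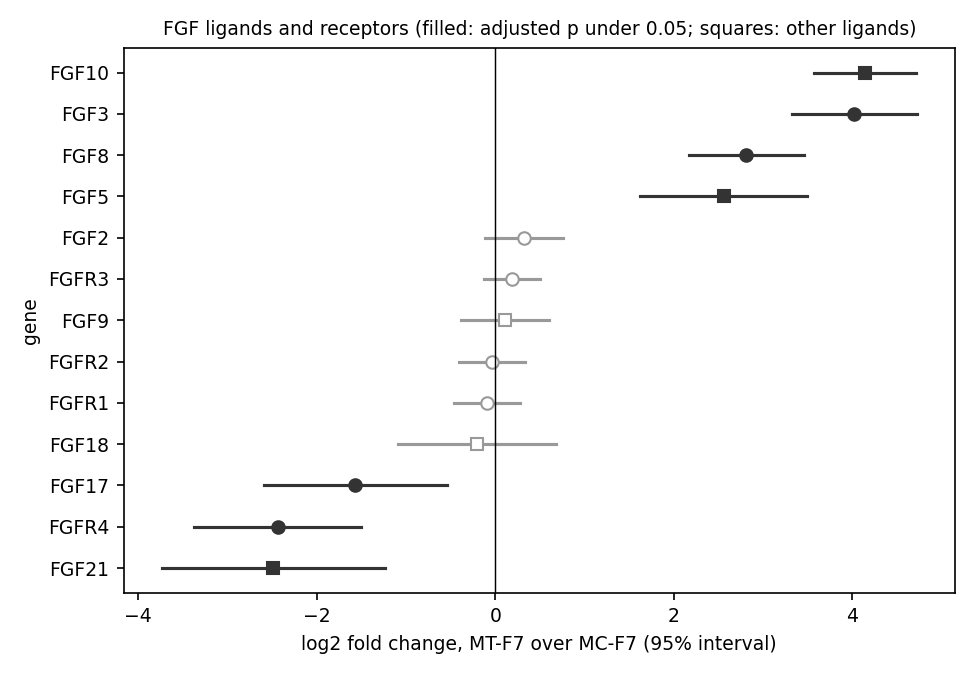
Log2 fold change of MT-F7 over MC-F7 with its 95% interval for the 13 tested genes of FGF ligands and receptors; filled symbols have an adjusted p under 0.05, circles are the 8 genes described first and squares are other secreted ligands. FGF10, FGF3, FGF8 and FGF5 lie on the right, FGF17, FGFR4 and FGF21 on the left, and the intervals of the remaining 6 cross 0.

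The genes that handle FGF signals outside and inside the cell were placed in 6 lists, of which 58 genes were tested. Of these, 11 (19%) were higher and 8 (13.8%) lower in MT-F7, beside 11.9% and 11.3% of all tested genes. The lists include the other ligands above. FGF5 and the feedback gene IL17RD passed the filter on low counts on the MT-F7 libraries alone, and FGF21 on the MC-F7 libraries alone. The counts of genes called in these lists are thus a description. The medians of the 6 lists lay between -0.077 and 0.33 as log2 fold changes, beside -0.0026 for all tested genes.

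Among co-receptors and modulators, 5 genes were tested and 2 rose, beside 11.9% higher of all tested genes. FLRT3, a membrane protein that binds FGF receptors, rose from 58.5 ± 7.71 to 153 ± 36.5 CPM (log2 fold change 1.39, SE 0.192, adjusted p = 2.3e-04). Its relative FLRT2 rose from 0.631 ± 0.0486 to 1.72 ± 0.344 CPM (adjusted p = 0.015), a call lost without replicate 2 of MC-F7 or replicate 3 of MT-F7 (adjusted p up to 0.056). The co-receptor KLB had 2.47 ± 0.624 and 2 ± 0.62 CPM and FGFRL1, a receptor without a kinase, had 47.2 ± 5.34 and 54.7 ± 5.81 CPM (adjusted p = 0.56 and 0.36).

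Of the 11 genes for enzymes of heparan sulfate, 3 rose, beside 11.9% higher of all tested genes, and 8 were not called. SULF2, an enzyme outside the cell that removes sulfate groups from heparan sulfate, had 19.1, 23.1 and 25.1 CPM in MC-F7 and 101, 106 and 94.8 CPM in MT-F7. The groups were far apart (log2 fold change 2.17, SE 0.16, adjusted p = 1.9e-06). Its relative SULF1 rose from 3.51 ± 0.986 to 6.84 ± 1.66 CPM (adjusted p = 0.022), although 3 of the 6 fits without 1 library lost the call (those without MC-F7 replicates 1 and 2 and MT-F7 replicate 3, adjusted p up to 0.08). EXT1, which lengthens the chains, rose from 18.8 ± 0.912 to 32.1 ± 2.36 CPM (adjusted p = 0.0029).

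Of the 19 adaptors and kinases between receptor and MAP kinase, 1 rose, 2 fell and 16 were not called. Over all tested genes 11.9% were higher and 11.3% lower. BRAF, a kinase that RAS activates, fell from 19.1 ± 2.37 to 5.99 ± 0.859 CPM (log2 fold change -1.67, SE 0.189, adjusted p = 4.9e-05). SHC1, an adaptor, rose from 193 ± 10.2 to 293 ± 8.4 CPM (log2 fold change 0.60, SE 0.141, adjusted p = 0.0082), and without replicate 2 of MC-F7 the adjusted p was 0.054. MAP2K2, a kinase that phosphorylates ERK, fell from 283 ± 29.2 to 197 ± 13.7 CPM (adjusted p = 0.023). The call was lost without replicate 1 of MC-F7, replicate 1 of MT-F7 or replicate 2 of MT-F7 (adjusted p up to 0.11). MAP2K1, which also phosphorylates ERK, had 25 ± 0.597 and 22.3 ± 2.26 CPM and was not called (adjusted p = 0.49). FRS2, the docking protein closest to the receptors, had 2.57 ± 0.751 and 2.5 ± 0.706 CPM (adjusted p = 0.94).

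Among 14 tested feedback and target genes of the pathway, 3 rose and 4 fell, beside 11.9% higher and 11.3% lower of all tested genes. EGR1, an immediate early gene of ERK signaling, rose from 67.3 ± 21.2 to 281 ± 61.5 CPM (log2 fold change 2.06, SE 0.23, adjusted p = 4.4e-05). IL17RD (SEF), an inhibitor of FGF signaling, rose from 0.235 ± 0.0657 to 2.15 ± 1.11 CPM (adjusted p = 7.7e-04) and passed the filter on the MT-F7 libraries alone. SPRY1, a Sprouty inhibitor of the pathway, rose from 32 ± 0.865 to 64.7 ± 2.51 CPM (adjusted p = 2.4e-04).

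SPRY4, another Sprouty inhibitor, fell from 15 ± 1.05 to 5.41 ± 0.479 CPM (log2 fold change -1.48, SE 0.181, adjusted p = 9.6e-05). DUSP5, a phosphatase of ERK, fell from 2.18 ± 1.01 to 0.68 ± 0.115 CPM (adjusted p = 0.014, but 0.06 without replicate 3 of MC-F7). ETV4 and SPRED1 also fell (adjusted p = 0.012 and 0.034). ETV4 lost the call without replicate 2 of MT-F7 (adjusted p = 0.058), and SPRED1 without replicate 1 or 2 of MC-F7 or replicate 1 or 3 of MT-F7 (adjusted p up to 0.12). DUSP6 had 31.7 ± 2.26 and 27.3 ± 2.64 CPM (adjusted p = 0.35), and ETV5 had 72.6 ± 10.1 and 65.6 ± 5.28 CPM (adjusted p = 0.54). The called genes of this list thus went in both directions. EGR1, IL17RD and SPRY1, all higher, and SPRY4, lower, kept the call in every fit that left out 1 library. The activity of the pathway was not tested.

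**Figure D5:**
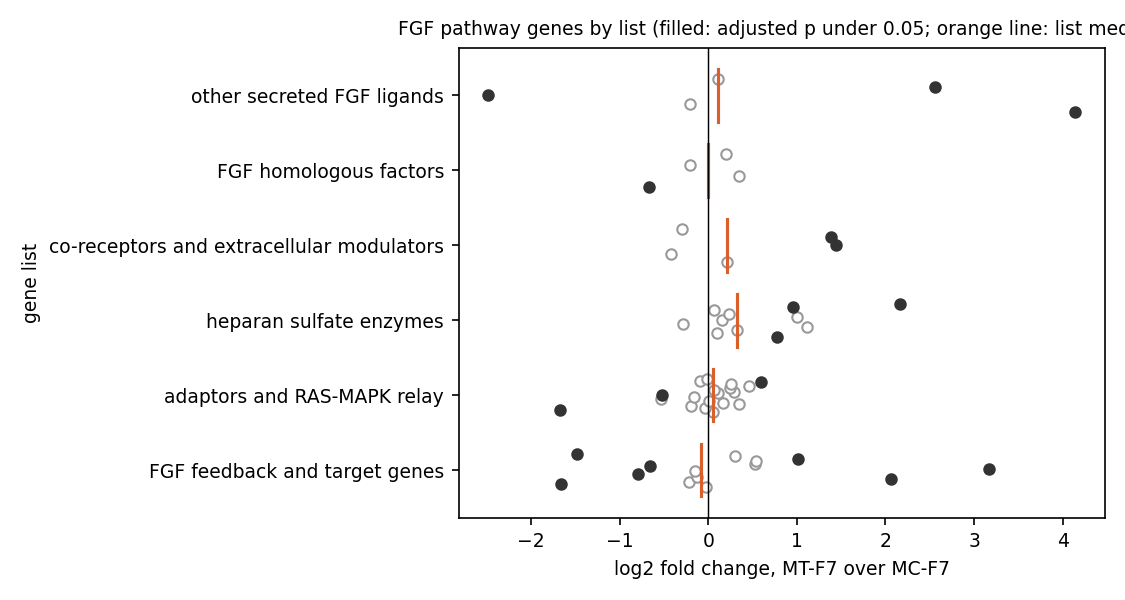
Log2 fold change of MT-F7 over MC-F7 for each tested gene of the 6 lists of FGF pathway genes; filled points have an adjusted p under 0.05 and the orange lines are the medians of the lists. Most points lie near 0, with called genes on both sides among the feedback and target genes.

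The genes whose CPM followed those of FGF8 and FGFR1 most closely were sought among the 11915 genes whose mean reached 1 CPM, by Pearson's r on log2 CPM over the 6 libraries. For FGF8 these were PELI3 (r = 0.999), ASB14 (0.998) and TMEM17 (0.997), all called higher in MT-F7. For FGFR1 they were TPCN2 (0.996), SLC52A2 (0.993) and VARS2 (0.992), none of them called. As many as 429 genes had an r over 0.95 with FGF8 and 92 with FGFR1. With 6 libraries in 2 groups such values are a description of the libraries.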

How the data were processed

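RNA-seq of 3 MC-F7 and 3 MT-F7 libraries was used, grouped by the sample titles. The authors used HISAT2 2.0.5 to align paired-end reads to the Bos taurus genome of Ensembl (build not given in the sources used here) and deposited raw counts per Entrez gene from featureCounts 1.5.0-p3. They also deposited values called TPM. For 9681 of 9682 well-counted genes these had the same ratio to the gene count in each library (within 0.1%), so depth is still in them. Each column was rescaled to 1000000 for levels and shares. Symbols came from RefSeq (19074 of 19163 genes). Between replicates of a group the counts differed by more than sampling noise.

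edgeR 4.0.16 in R 4.3.3 kept 13001 genes (filterByExpr with a count of 10 and a total of 15), and TMM factors were 0.971 to 1.04. Standard errors are the log2 fold change divided by the root of the F statistic. Shares were compared by exact permutation tests in scipy 1.17.1. The count tests were tested on simulated data. limma 3.58.1 and DESeq2 1.42.0 served as alternatives. The FGF genes and all lists were chosen with earlier results of these data known. Besides the FGF genes, at most 4 genes per list were named, by size of change among called genes without overlap and with a mean of at least 1 CPM; SPRY1, ETV4, SPRED1, FGF21, uncalled genes and neighbours were named after their values were seen.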

Additional observations from a re-analysis of the deposited data

How the results depend on the processing

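FGF3, FGF8 and FGFR4 kept their direction and call under every alternative in which they were tested (16, 17 and 16 alternatives), among them RLE factors, library size only, DESeq2, the exact test, removal of mitochondrial genes and limma on TPM. With at least 10 counts in every library FGF3, FGF17 and FGFR4 are not tested, so 1 gene was called higher and 0 lower. Leaving out 1 library gave log2 fold changes of -1.73 to -1.29 for FGF17 and 1 to 2 genes called lower. FGF2 and FGFR3 stayed higher and uncalled throughout (adjusted p = 0.18 to 0.59). FGFR1 changed sign in limma on log2(TPM + 1) (0.035) and log2(TPM + 0.1) (0.038), and FGFR2 did so too (0.088 and 0.10). These fits used the deposited values without rescaling, so depth is still in them. On rescaled TPM, an alternative chosen after seeing the data, FGFR1 was at -0.012 and FGFR2 at 0.055. Without 1 library FGFR1 ranged from -0.24 to 0.033 and FGFR2 from -0.15 to 0.12, and the difference of the FGFR2 share from -0.117 to 0.881 percentage points. The cause was not tested. On the log2(TPM + 1) scale, which understates changes of low genes, the log2 fold changes of FGF3, FGF8, FGF17 and FGFR4 were 1.40, 1.94, -0.14 and -0.12. Of the pathway lists, limma on log2(TPM + 1) called 3 genes lower in place of 8 (MAP2K2, DUSP5, ETV4 and SPRED1 lost the call, and FGF11 could not be tested there), and leaving out 1 library 5 to 7. MAP2K2 and SPRED1 also lost the call in limma on log2(TPM + 0.1).

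The labels share replicate numbers, but deviations of same-numbered libraries correlated at 0.134, 0.0445 and 0.417, so the numbers were not taken as pairs. With the replicate number as a block 2 FGF genes were called higher and 2 lower, as without it, and the pathway lists had 12 higher and 8 lower.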

Other observations

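The intracellular FGF homologous factors, which are related to the ligands in sequence, are not secreted and act on sodium channels, were all tested. FGF11 fell from 10.4 ± 0.769 to 6.53 ± 1.1 CPM (edgeR log2 fold change -0.67, standard error 0.198, adjusted p = 0.027), but 5 of the 6 fits that left out 1 library lost the call (all but that without replicate 3 of MC-F7, adjusted p up to 0.11). FGF12, FGF13 and FGF14 had log2 fold changes of 0.35, -0.21 and 0.20 and were not called.

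The neighbours of the 4 called FGF genes in the order of RefSeq genes (3 protein-coding genes on each side, read after the values were seen) gave 22 genes outside the FGF family, of which 20 were tested. In edgeR 2 were called lower and 0 higher. Over all tested genes 11.3% were called lower and 11.9% higher, or 23.2% in either direction. The share called lower was near that of all tested genes, and the share called in either direction was under it. NPM3, next to FGF8, fell from 14 ± 1.27 to 8.4 ± 1.1 CPM (adjusted p = 0.011). NPM2, an oocyte nucleoplasmin next to FGF17, fell from 3.75 ± 0.693 to 0.337 ± 0.346 CPM (adjusted p = 6.9e-04).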
